A study of Mus musculus with 3 samples.

Results

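Interleukin-1β (IL-1β, gene Il1b) is an alarm cytokine of injured skin, and the cells described here are the Langerhans cells that held the most of its transcript after croton oil. They were chosen by a gate on the single-cell library of mouse ear epidermis treated with croton oil. A cell entered the gate if 500 or more genes were detected in it and mitochondrial transcripts took 10% or less of its counts. Cd74, H2-Aa, H2-Ab1 and H2-Eb1, the invariant chain and class II genes of antigen presentation, had to take at least 2% of its counts of unique molecular identifiers (UMIs, each 1 captured transcript molecule). It also needed at least 2 UMIs of Epcam, an epithelial adhesion gene, and at least 1 of Cd207, which encodes langerin. Cells with a UMI of the migration receptor Ccr7 were left out, as were cells with 3 or more UMIs of Cd3d, Cd3e and Cd3g, or with 0.1% or more of S100a8 and S100a9 or of the keratins Krt14, Krt5, Krt1 and Krt10. Of 8241 barcodes in the croton oil library, 4504 passed the gate. An Il1b-high cell was a gated cell with Il1b at 1000 CPM (its UMIs per 1000000 UMIs of the cell) or more and at least 5 Il1b UMIs, and 1025 cells met this. They were 1025 of 25062 barcodes in the whole series. The cells set against them, called Il1b-zero here, were the 1820 gated cells of the same library with no Il1b UMI and at least 8000 UMIs. The remaining 1659 gated cells lay between.

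The series held 1 library for each of 3 groups, all from ear epidermis of male mice of strain Cd1. The first group was untreated apart from the depilatory Nair, the second received croton oil, an irritant plant oil, mixed with acetone and olive oil, and the third received multiple microneedle punches. Treated skin was collected 48 hours after the initial treatment, the epidermis was freed with trypsin, dead cells were removed and Langerhans cells were enriched on magnetic beads. Neither the age of the mice nor the number of animals behind a library is given in the labels. With 1 library per group no difference between treatments or cells has a replicate check, so values are given with exact 95% intervals that cover counting error only, and treatment, batch and library cannot be told apart.

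Langerhans cells are phagocytes that live in the epidermis and present antigen to T cells. IL-1β is made as an inactive precursor. Receptors for microbial or damage signals, and IL-1 and TNF themselves, activate the transcription factor NF-kB, which turns on Il1b together with neutrophil-attracting chemokines and with genes such as Nfkbia and Tnfaip3 that switch NF-kB off again. A separate complex, the inflammasome, activates caspase-1 (Casp1), which cuts the precursor and opens gasdermin D pores (Gsdmd) for release. A transcript count shows the first step and not the second.

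Il1b lies at chr2:129206490-129213059 on the minus strand (GRCm39). The bases before the starts of Il1b and of 3 genes that stood higher in the Il1b-high cells are shown because they bear on which of them carry NF-kB letters. Each line gives the 250 bases before the RefSeq start, 5′ to 3′ on the gene's own strand, from the RefSeq table of GRCm38.p6, located by exact match to 1 place in GRCm39. The windows were chr2:129213060-129213309 (minus) for Il1b, chr5:91038854-91039103 (plus) for Cxcl1, chr5:91051508-91051757 (plus) for Cxcl2 and chr12:55539433-55539682 (minus) for Nfkbia. Capitals mark matches to the NF-kB consensus on either strand, and overlapping matches share their letters.
Il1b: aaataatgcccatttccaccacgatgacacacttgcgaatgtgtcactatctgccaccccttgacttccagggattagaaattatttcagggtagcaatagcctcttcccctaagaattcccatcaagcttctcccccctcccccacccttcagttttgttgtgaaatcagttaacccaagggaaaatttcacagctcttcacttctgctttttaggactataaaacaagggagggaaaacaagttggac
Cxcl1: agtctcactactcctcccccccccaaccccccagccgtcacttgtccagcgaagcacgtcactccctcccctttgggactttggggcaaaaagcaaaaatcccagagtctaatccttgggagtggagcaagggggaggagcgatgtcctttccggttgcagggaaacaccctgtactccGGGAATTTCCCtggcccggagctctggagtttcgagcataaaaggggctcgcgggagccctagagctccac
Cxcl2: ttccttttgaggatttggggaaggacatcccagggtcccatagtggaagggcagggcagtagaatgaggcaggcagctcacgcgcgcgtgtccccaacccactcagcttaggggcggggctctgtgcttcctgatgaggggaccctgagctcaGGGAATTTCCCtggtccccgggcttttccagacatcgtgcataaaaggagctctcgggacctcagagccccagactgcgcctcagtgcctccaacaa
Nfkbia: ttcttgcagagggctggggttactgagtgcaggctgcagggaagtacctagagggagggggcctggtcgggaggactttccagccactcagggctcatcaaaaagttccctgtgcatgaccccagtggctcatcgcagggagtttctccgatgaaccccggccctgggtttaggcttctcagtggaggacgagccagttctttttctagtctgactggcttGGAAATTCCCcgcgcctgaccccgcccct

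The same 11 letters, GGGAATTTCCC, began 71 bases before the start of Cxcl1 and 97 bases before that of Cxcl2. In Nfkbia the match GGAAATTCCC began 29 bases before the start. The Il1b window held no match, nor did those of Icam1, Mrc1 and C1qb, which says only that these letters are not in those 250 bases. Over all 32851 promoters listed, 7.25% held the NF-kB consensus.

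Il1b itself divided the gated cells widely. In the Il1b-high cells, which were selected on these values, Il1b ran from 7 to 177 UMIs per cell with a median of 29, or from 1000 to 13747 CPM with a median of 2148 and quartiles of 1452 and 3160. The step at the threshold was not a gap: 59 cells lay from 1000 to 1100 CPM and 55 from 900 to 1000 CPM, and no cell reached 1000 CPM with under 5 UMIs. The Il1b-high cells made up 22.8% of gated cells (95% exact binomial interval 21.5 to 24) and held 81.7% of the Il1b UMIs of the gate. The share of gated cells without an Il1b UMI at any depth was 42.6%. The 2 sets compared were alike in depth, with a median of 12541 UMIs and 3622 genes in the Il1b-high and 13343 UMIs and 3821 genes in the Il1b-zero cells, and in mitochondrial share, 1.64% against 1.66%.

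Cells of this kind were fewer in the other 2 libraries. By the same gate and threshold, 576 of 5203 gated cells (11.1%, 10.2 to 12) were Il1b-high after microneedle punches and 192 of 9102 (2.11%, 1.82 to 2.43) in untreated skin. Their median Il1b level was also lower, 1676 CPM after punches and 1460 CPM in untreated skin, and their highest cells reached 8711 and 4655 CPM. Over all gated cells Il1b stood at 673 CPM after croton oil, 327 CPM after punches and 70.9 CPM in untreated skin. Because deeper cells reach 5 UMIs more easily, cells of at least 8000 UMIs were also thinned at random to 8000 UMIs, which left 4272, 5040 and 8063 gated cells. Then 22.8% of croton oil, 12.4% of microneedle and 2.36% of untreated cells held 8 or more Il1b UMIs, the count that equals 1000 CPM. The upper end was the most uneven: 27 croton oil cells (0.632%) held 64 or more, against 3 microneedle cells and none of the untreated, whose highest filled class of 32 to 63 UMIs held 1 cell.

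**Figure D1:**
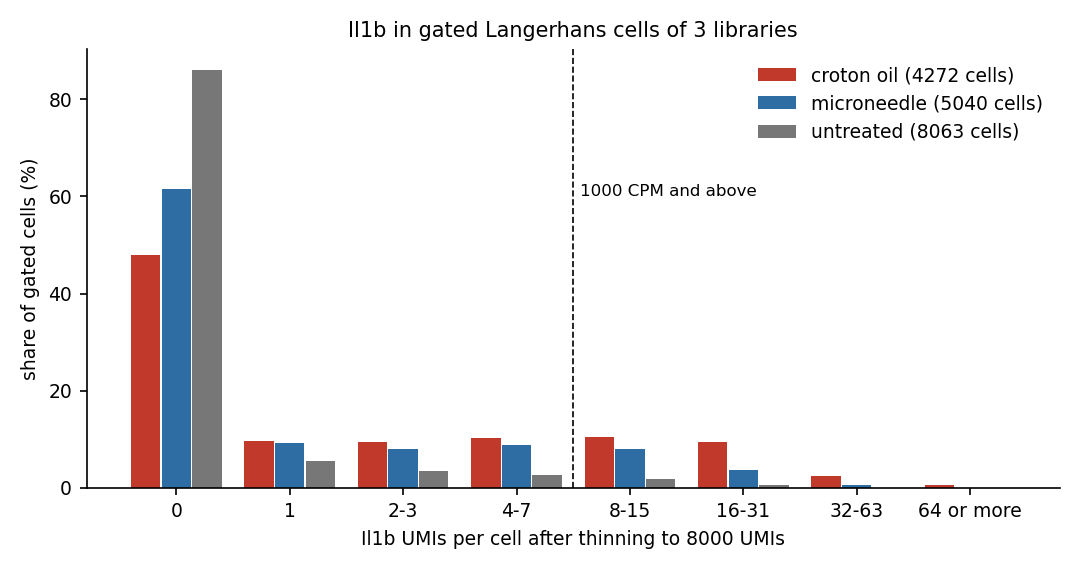
Share of gated Langerhans cells (%, y axis) by the number of Il1b UMIs per cell after thinning to 8000 UMIs (x axis), for the croton oil, microneedle and untreated libraries (bars). Cells right of the dashed line hold 8 or more UMIs, 22.8%, 12.4% and 2.36% of the 3 libraries, and 47.9%, 61.4% and 86.0% hold none.

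Il1b-bearing cells of other kinds were present. Neutrophil-type cells of the croton oil library (at least 1% of UMIs from S100a8 and S100a9, 236 cells) had an Il1b UMI in 82.2% and 1430 CPM. Keratinocyte-type cells (at least 1% from the 4 keratins, 210 cells) had a UMI in 38.1% but only 61.8 CPM, at a median depth of 51570 UMIs. T-cell-type cells (3 or more Cd3 UMIs, 134 cells) had a UMI in 10.4% and 82.2 CPM, at a median depth of 6273 UMIs. Free RNA from broken cells can add Il1b UMIs to any droplet, and its part in the Il1b-high cells was not tested. Of all gated cells 57.4% had an Il1b UMI, at a median depth of 13116 UMIs.

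The cells matched their label by markers that the gate had not used. Mfge8 stood at 2133 CPM, Id2, a transcription factor that Langerhans cells require, at 621, Csf1r, the receptor that keeps them alive, at 608, Runx3 at 377, Ly75, an uptake receptor, at 313 and Cdh1, the E-cadherin that ties them to keratinocytes, at 252 CPM. Of 17 Langerhans cell genes that could be compared outside the gate, none differed by 1.5-fold from the Il1b-zero cells, 6 were higher and 11 lower, and the median log2 difference was -0.05. Of all genes compared, 35.6% were higher, 99.3% lay within 1.5-fold and the median was -0.04, so these 17 were like the rest. The lowest was Cdh1, at 252 against 329 CPM (-0.38), and the highest Irf8, at 164 against 125 CPM (0.37). The 9 conventional dendritic cell markers summed to 464 CPM in the Il1b-high and 516 in the Il1b-zero cells. Of these 5 could be compared, and none differed by 1.5-fold. Markers of T cells, neutrophils and keratinocytes were scarcer, and of the neutrophil markers only Mmp9 could be compared (-0.24). The 12 T cell markers summed to 7.72 CPM in the Il1b-high and 11.9 in the Il1b-zero cells, the 15 neutrophil markers to 67.3 and 68.3 CPM, and the 14 keratinocyte markers to 114 and 131 CPM. The gate had capped Cd3, S100a8, S100a9 and keratin counts in both sets, but neutrophil Csf3r, which it had not, was also near 0 (0.07 and 0.27 CPM) and Mmp8 was at 0 in the Il1b-high cells. Of the 13 monocyte and macrophage markers, Ly6c2 (0.07 CPM), Ccr2 (0.43), Lyz2 (1.35) and Plac8 (0) were near or at 0 in the Il1b-high cells, while Adgre1 stood at 185 against 154 CPM and Cd14 at 133 against 91.8 CPM.

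Outside Il1b the 2 sets of cells were close. Differences are log2 ratios of summed CPM with 5 CPM added to both, which understates the change of low genes. Among 6213 genes with at least 20 CPM over the gated cells, the gate's genes left out, the median difference was -0.04, 35.6% of genes were higher in the Il1b-high cells and 99.3% lay within 1.5-fold. Only 10 genes (0.161%) were at least 2-fold higher in the Il1b-high cells and 0 (0%) were at least 2-fold lower. At 1.5-fold, a limit added after the data had been seen, 39 genes (0.628%) were higher and 7 (0.113%) lower. The 10 were Mrc1, Gm56663, Icam1, Ifitm1, Cxcl1, C1qb, Nrp2, Bcl2a1a, Nrg1 and Cxcl2. Icam1 and Gm56663, and 4 others of the 39 (Itga9, Ptgs2, Sytl3 and Tgm2), lay under 20 CPM in the Il1b-zero cells and so passed the filter through the cells with Il1b. The call of some is uncertain as to the gene: Bcl2a1a has near-identical copies, of which Bcl2a1d stood at 162 against 106 CPM, a second listed feature overlaps Nrg1 under the same symbol, and the long noncoding RNA Gm56663 lies at chr19:11370203-11370687 (GRCm39), 48 bases past the end of Ms4a4a on the same strand.

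**Figure D2:**
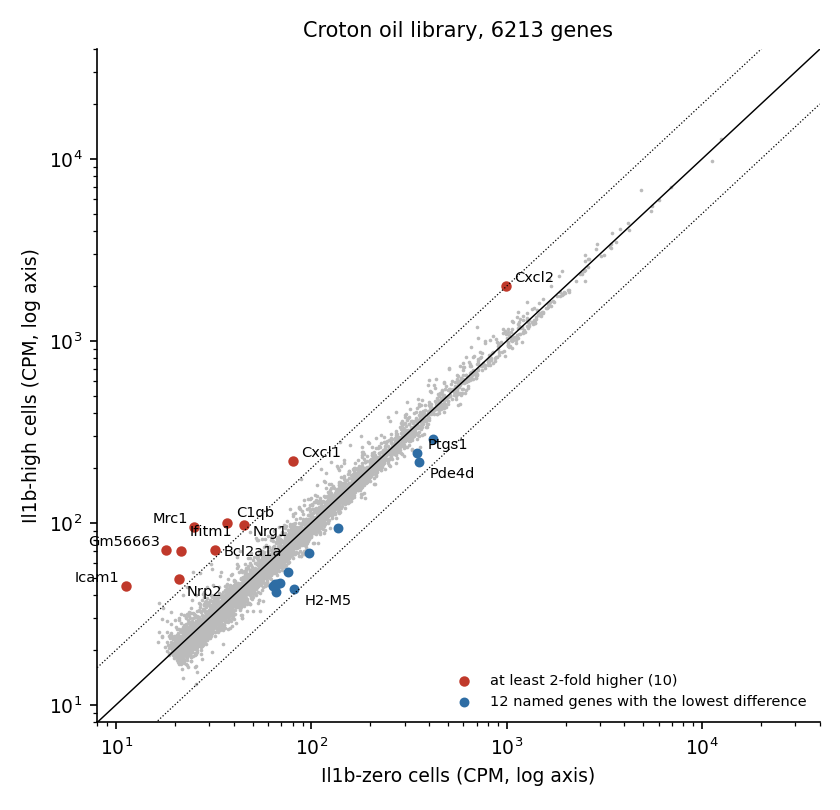
Level of each of 6213 genes in Il1b-high (y axis) against Il1b-zero cells (x axis) of the croton oil library, both in CPM on log axes, with the line of equal levels (solid) and of plain 2-fold ratios (dotted). Red marks the 10 genes called at least 2-fold higher and blue the 12 named genes with the lowest difference; calls use 5 added CPM, so some low genes (grey) beyond a dotted line are not called.

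Neutrophil-attracting chemokines were higher in the Il1b-high cells. Cxcl2, a ligand of the neutrophil receptor Cxcr2, stood at 2004 CPM (1981 to 2028) in the Il1b-high and 986 CPM (974 to 998) in the Il1b-zero cells, a log2 difference of 1.02 that lay under 2-fold in 6 other settings (0.84 to 0.99). Its relative Cxcl1 stood at 219 CPM (211 to 227) against 80.5 (77.1 to 84.1), a difference of 1.39. The Cxcl2 difference was one of amount more than of presence: after thinning to 8000 UMIs, 76.1% of 951 Il1b-high and 61.3% of 1820 Il1b-zero cells held a UMI, with a median of 9 UMIs against 1 and an upper quartile of 23 against 10. For Cxcl1 24% against 11.7% held a UMI. Other cells of the library held both. Keratinocyte-type cells, a known source of these chemokines in inflamed skin, had a Cxcl1 UMI in 58.6% and 94.1 CPM, with Cxcl2 at 143.5 CPM. Neutrophil-type cells held 6758 CPM of Cxcl2. T-cell-type cells, which are not known for them, held 73.7 CPM of Cxcl1, from 8 of 134 cells (5.97%), and 308 CPM of Cxcl2, from 28 cells (20.9%). Neutrophil-type cells held 70.0 CPM of Cxcl1. These Cxcl1 levels were close to that of the Il1b-zero cells. The part of free RNA from these cells was not tested. Of 20 listed chemokines 5 could be compared; Cxcl16 (798 against 714 CPM, 0.16), Ccl3 (30.1 against 36.5, -0.24) and Ccl4 (36.0 against 36.7, -0.02) were within 1.5-fold.

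NF-kB genes leaned the same way, nearly all by little. Of 21 measured genes of the NF-kB list, all 21 were higher in the Il1b-high cells, 5 of them by at least 1.5-fold, with a median of 0.28 against -0.04 over all genes, of which 35.6% were higher and 0.628% by 1.5-fold. Icam1 is 1 of these 5 and passed the filter only through cells with Il1b. The 5 were Icam1, an adhesion molecule that leukocytes bind (45.0 against 11.2 CPM, 1.63), the adaptor Traf1 (53.3 against 27, 0.87), Nfkbia, the inhibitor IκBα (1197 against 706, 0.76), Tnfaip3, the deubiquitinase A20 (381 against 248, 0.61), and Nfkbiz, which encodes the NF-kB co-regulator IκBζ (205 against 134, 0.59). Nfkb1, the p105 subunit, followed at 1038 against 710 CPM (0.54) and Bcl3 at 44.5 against 29.1 (0.54). The Rela subunit was level, 45.6 against 44.7 CPM (0.02), and Rela, Sod2 and Nfkbie were the genes that turned negative in 4 of the 19 other settings in which the list was recomputed. Nfkbia was also abundant in other cells, at 1751 CPM in neutrophil-type, 844 CPM in keratinocyte-type and 615 CPM in T-cell-type cells.

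Promoter letters were counted over these genes. Of the 39 genes at least 1.5-fold higher, 32 had a listed promoter, and 8 (25%) of them held the NF-kB consensus: C1qc, Casp4, Cxcl1, Cxcl2, Nfkbia, Ramp3, Tnfaip3 and Tnfrsf9. Among 4962 matched genes of all those compared the share was 10.9%. A match is a run of letters and not a bound site.

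Complement and membrane receptor genes were also among those at least 2-fold higher. Mrc1, the mannose receptor CD206 of macrophages and dermal dendritic cells, stood at 94.7 CPM (89.6 to 99.9) against 25.1 (23.2 to 27.1) (1.73). With 5 CPM added this was the largest difference among the 6213 genes past the filter. As plain ratios, Icam1 (4.02) and Gm56663 (3.93) stood above Mrc1 (3.77). Among the 368 Il1b-high and 604 Il1b-zero cells with no UMI of S100a8, S100a9 or the keratins the Mrc1 difference was 0.90, and that of Cxcl1 0.85, so neither reached 2-fold there. C1qb and C1qc, 2 of the 3 chains of the first complement component, stood at 99.3 against 37.1 CPM (1.31) and 217 against 125 CPM (0.77), while the third chain C1qa, already at 1266 CPM in the Il1b-zero cells, reached 1629 (0.36). Set against all other gated cells, C1qb was 0.77 higher and so under 2-fold. Ifitm1, a membrane protein known from antiviral defence, stood at 70.3 against 21.5 CPM (1.51) and Nrp2, a semaphorin and growth factor co-receptor, at 49.2 against 20.9 (1.07). After thinning, 15.8% of Il1b-high and 6.21% of Il1b-zero cells held an Mrc1 UMI, and 27.5% against 15.7% a C1qb UMI. Keratinocyte-type cells held 4.51 CPM of Mrc1 and 5.25 CPM of C1qb. Mrc1 stood at 23.7 CPM in T-cell-type and 20.7 CPM in neutrophil-type cells, about the level of the Il1b-zero cells, and C1qb at 1.69 and 13.5 CPM. In T-cell-type cells these levels came from few cells, 3 of 134 with an Mrc1 UMI (2.24%) and 2 with a C1qb UMI (1.49%), against 7.14% and 20.4% of the Il1b-zero cells before thinning, at median depths of 6273 and 13343 UMIs. Of 11 measured genes of the C1q, clearance and lysosome list 7 were higher, 2 of them by 1.5-fold, with a median of 0.16, beside 35.6% and 0.628% of all genes. The monocyte and macrophage markers that moved with these genes are those given above (Adgre1 and Cd14, both within 1.5-fold), and their part in these differences was not tested.

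Other named genes stood 1.5-fold or more higher. Srgn, serglycin of secretory granules, was at 277 against 140 CPM (0.96), Dusp2, a phosphatase that dampens MAP kinases, at 173 against 88.4 (0.93), Pgf, placental growth factor, at 269 against 157 (0.76), Tgfbi, a secreted matrix protein, at 197 against 112 (0.79), Mxd1, a Myc antagonist, at 301 against 179 (0.73) and the actin-associated Rai14 at 88.8 against 48.3 (0.81). Clec7a, the fungal receptor dectin-1, was at 88.2 against 54.6 CPM (0.64). The 5 measured pattern recognition receptors were all higher, 1 by 1.5-fold, with a median of 0.38, beside 35.6% and 0.628% of all genes. Tnfrsf9, the costimulatory receptor 4-1BB, was at 613 against 397 CPM (0.62), Cd80, a costimulatory ligand, at 365 against 252 (0.53) and Cd83 at 813 against 618 (0.39). The maturation and migration list had 8 measured genes outside the gate, 7 higher and 1 by 1.5-fold, with a median of 0.27, beside the same shares of all genes. Fscn1, which marks Langerhans cells that leave the skin, was detected in 1.68% of Il1b-high and 1.76% of Il1b-zero cells after thinning.

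No gene reached 2-fold on the lower side. The lowest named genes were H2-M5, a nonclassical class I gene whose locus overlaps Zfp57 on the other strand, at 43.5 against 81.8 CPM (-0.84), Pde4d, a cAMP phosphodiesterase, at 217 against 356 (-0.70), and Oxct1, an enzyme of ketone use, at 41.6 against 66.0 (-0.61). The other 9 lay within 1.5-fold. They were Cacna1e, a calcium channel (287 against 420 CPM, -0.54), Ptgs1, the constitutive cyclooxygenase (242 against 348, -0.52), Lgals7 (-0.51), Marchf1, a ubiquitin ligase for class II (94.0 against 136, -0.51), Hsph1 (-0.48), Rgs18 (-0.48), Wdfy2 (-0.47), Slc39a6 (-0.47) and Ccnd1, cyclin D1 (-0.46). The inducible cyclooxygenase Ptgs2 went the other way from Ptgs1, at 34.1 against 17.4 CPM (0.80).

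The machinery that would process and receive IL-1β was nearly level, as were most genes. Of 17 listed inflammasome and release genes 12 could be compared, while Casp1 and Gsdmd lay under the filter. Of the 12, 9 were higher, beside 35.6% of all genes, and the median was 0.04 against -0.04. Of all genes 99.3% lay within 1.5-fold, and of the 12 all but 1 did. That gene was Casp4, the caspase-11 that senses cytosolic lipopolysaccharide, at 55.9 against 30.9 CPM (0.76). Nlrp3, the sensor whose transcription NF-kB also drives, was at 297 against 236 CPM (0.33), and its adaptor Pycard at 111 against 119 (-0.10). Casp1 was low in both, at 17.8 and 16.9 CPM, and after thinning 12.2% and 12.4% of cells held a UMI. Gsdmd was at 8.22 and 8.59 CPM. The decoy receptor Il1r2, which binds IL-1β without signalling, stood at 2802 against 2631 CPM (0.09), and the signalling receptor Il1r1 stood at 86.6 against 85.0 (0.03). The 5 measured receptors had a median of -0.09 and none was called. The relative Il18 was at 306 against 314 CPM (-0.04), and Tnf at 308 against 289 (0.09).

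The 2 relatives of Il1b that share its receptor were rare and followed it. Il1a, IL-1α, held 115 UMIs in the Il1b-high cells, or 8.15 CPM (6.73 to 9.78), against 21 UMIs and 0.80 CPM (0.50 to 1.22). Il1rn, the receptor antagonist, held 139 UMIs or 9.85 CPM against 41 UMIs and 1.56 CPM. Both lay under the 20 CPM filter and so entered no count. After thinning, 3.79% of Il1b-high cells held an Il1a UMI and 4.73% an Il1rn UMI, against 0.165% and 1.04% of Il1b-zero cells. Other cells held both transcripts, and the part of their free RNA was not tested: Il1rn stood at 151 CPM in neutrophil-type cells, 13.4 CPM in keratinocyte-type and 11 in T-cell-type cells, and Il1a at 9.30 CPM in keratinocyte-type cells. Some other cytokine genes under the filter were higher, such as Ccl17, a chemokine for T cells, at 32.1 against 5.95 CPM, Il23a at 22.6 against 8.66 and Osm at 27.6 against 14.7. The checkpoint ligand Cd274 stood at 20.8 against 7.75 CPM. Of 28 listed other cytokines and mediators 9 could be compared. Of these 5 were higher, 1 by 1.5-fold (median 0.08), beside 35.6% and 0.628% of all genes. The 28 summed to 1816 CPM in the Il1b-high and 1966 CPM in the Il1b-zero cells.

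Immediate early and cytokine feedback genes leaned higher by little, while heat shock, metabolism and antigen presentation genes had medians near that of all genes. For the counts that follow, 35.6% of all genes were higher, 0.628% were so by 1.5-fold, 99.3% lay within 1.5-fold and the median was -0.04. Of 26 measured AP-1 and immediate early genes, which tissue dissociation is also known to induce, 23 were higher with a median of 0.19, but only Dusp2 reached 1.5-fold, with Ier2 at 408 against 272 CPM (0.58), Egr1 at 575 against 397 (0.53) and Jun lower, at 445 against 563 (-0.34). The part of cell handling in these was not tested. The 11 heat shock genes had a median of -0.05, the 23 genes of glycolysis and hypoxia -0.06, the 10 antigen presentation genes outside the gate -0.01 and the 4 measured interferon-stimulated genes 0.04, none with a member at 1.5-fold in either direction. Of 9 genes of receptor-proximal TLR and IL-1R signalling 5 were higher (median 0.09, none called). The cytokine feedback list had 11 of 12 genes higher with a median of 0.25, beside 35.6% of all genes, and none by 1.5-fold. Among them were Socs3 at 138 against 99.4 CPM (0.45) and Pim1 at 697 against 509 (0.45). The proliferation gene Mki67 was at 45.6 against 31.2 CPM (0.48), and 22.6% against 16.4% of thinned cells held a UMI.

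**Figure D3:**
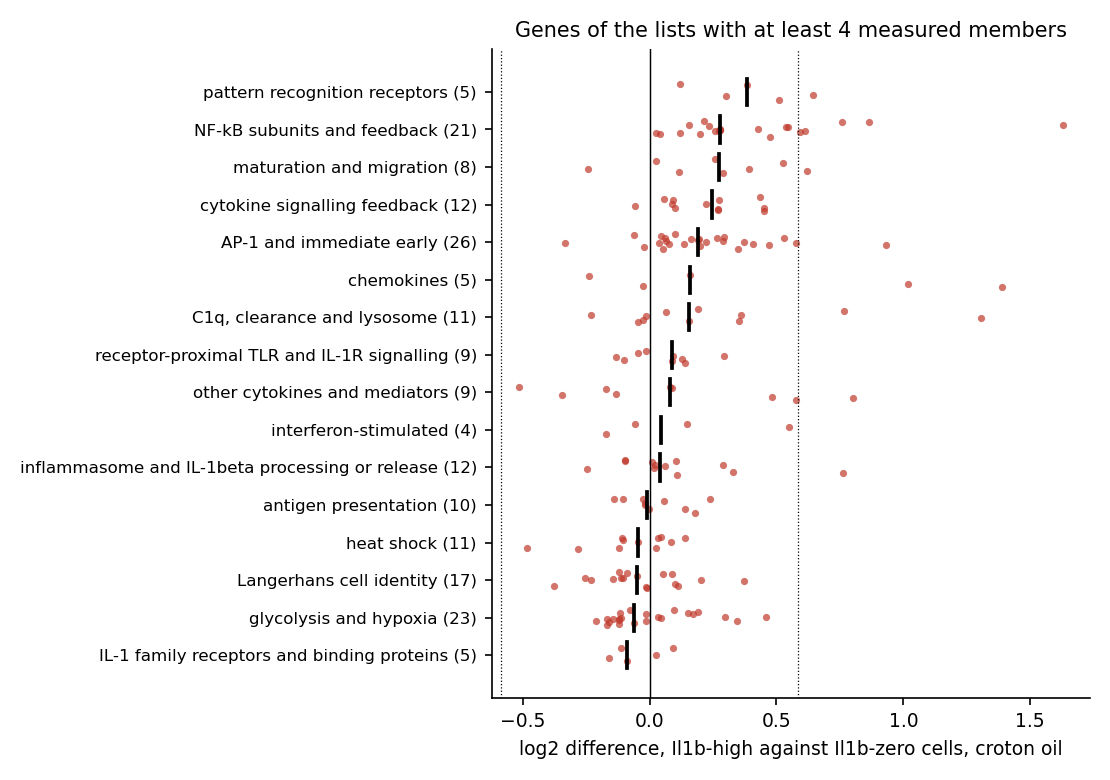
Log2 difference between Il1b-high and Il1b-zero croton oil cells (x axis) of each measured gene (points) in the 16 lists with at least 4 measured members (rows, number of genes in brackets), with the list median (bar) and lines at no difference (solid) and at 1.5-fold (dotted). The medians run from 0.38 for pattern recognition receptors to -0.09 for IL-1 family receptors, and single genes such as Icam1, Cxcl1 and C1qb stand far to the right of their lists.

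The same contrast was made inside the other 2 libraries. The calls at 2-fold and 1.5-fold above did not use their cells, but the gene lists were chosen with earlier results of all 3 libraries known. There 34 of 6321 genes (0.538%) were at least 2-fold higher and 2 (0.0316%) lower after microneedle punches, with 136 (2.15%) and 42 (0.664%) at 1.5-fold. In untreated skin 8 of 6250 (0.128%) were 2-fold higher and 3 (0.048%) lower, with 51 (0.816%) and 58 (0.928%) at 1.5-fold. Of the 39 genes higher in croton oil cells, 25 passed the filter in the microneedle library. Of these 24 were higher there too and 23 by at least 1.5-fold, against 42.4% and 2.15% of all genes compared in both libraries. The exception in sign was the ubiquitin ligase gene Rnf217 (-0.22). In the untreated library 11 passed the filter, all 11 were higher and 5 were so by 1.5-fold, against 35.8% and 0.832% of all genes. Of the 7 lower genes all 7 were lower after punches, 3 of them by 1.5-fold, against 57.6% and 0.524% of all genes. In untreated skin 6 were lower and 0 by 1.5-fold, against 64.2% and 0.531% of all genes, and the kinase gene Lrrk2 was higher (0.43).

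The chemokines, Icam1 and Nfkbia were higher in the Il1b-high cells of both other libraries. Of the 10 genes at least 2-fold higher after croton oil, 4 passed the 20 CPM filter after punches and 2 in untreated skin. Cxcl2 stood at 1471 against 416 CPM after punches (1.81) and 683 against 202 in untreated skin (1.73). Cxcl1 stood at 173 against 27.4 CPM (2.46) and at 69.8 against 14.5, Icam1 at 54.9 against 14.8 (1.59) and 80.7 against 36.5 (1.04), and Nfkbia at 836 against 460 (0.86) and 779 against 518 (0.58). Both sets of cells held more Cxcl2 and Cxcl1 after croton oil than in the other libraries, and the ratios were smallest there. The NF-kB list was higher in 20 of 20 measured genes after punches (median 0.28), beside 41.9% of all genes there. In untreated skin it was higher in 15 of 19 (0.27), beside 35.4% of all genes. Mrc1 was low outside croton oil, at 3.59 against 0.63 CPM after punches and 0 of 2207041 UMIs in those of untreated skin, where 0 UMIs allow up to 3, or 1.36 CPM. C1qb was at 21.2 against 5.28 CPM after punches and likewise 0 in untreated Il1b-high cells. Nrp2 was at 49.3 against 7.92 CPM after punches (2.07), a larger difference than after croton oil though under the filter, and at 5.44 against 2.45 CPM in untreated skin. Ifitm1 was at 12.9 against 4.37 CPM and at 4.08 against 1.32. C1qc was at 65.7 against 27.9 CPM after punches (1.10) and at 1.36 CPM in untreated ones. Tgfbi (238 against 143 CPM) and Pgf (161 against 60.5) recurred after punches and were under the filter in untreated skin. H2-M5 (-1.16 and -0.39) and Pde4d (-0.94 and -0.55) were lower in both.

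**Figure D4:**
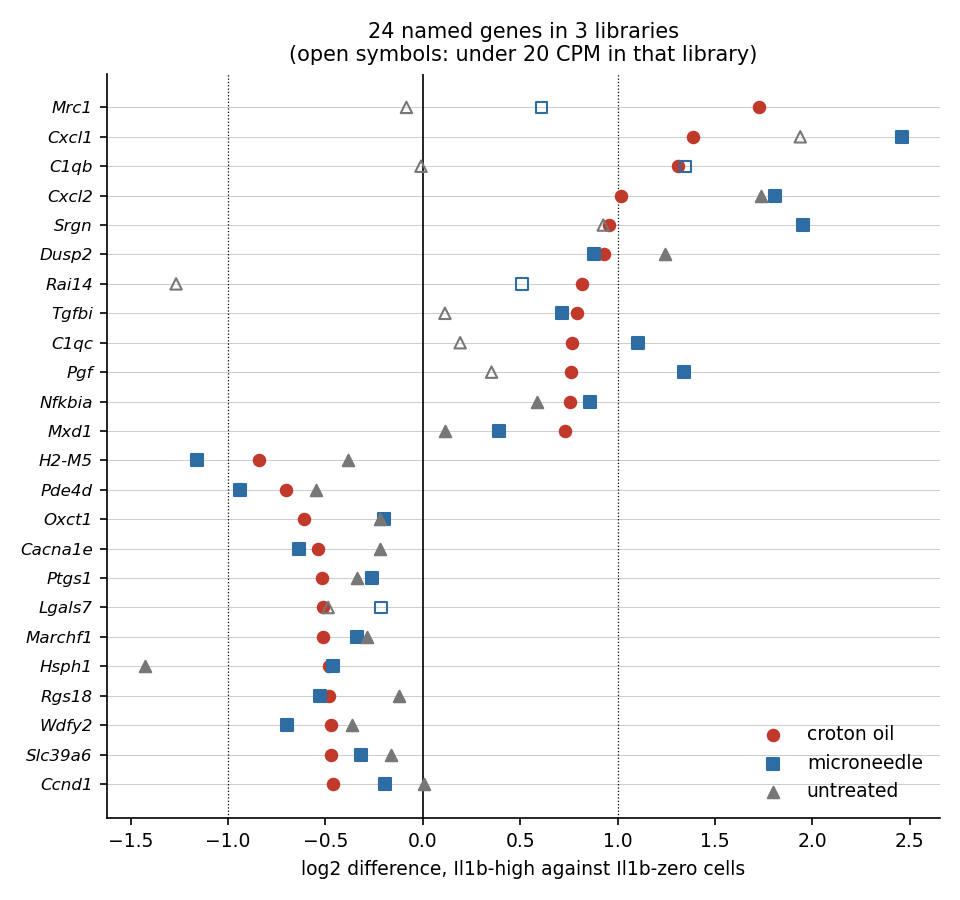
Log2 difference between Il1b-high and Il1b-zero cells (x axis) of the 12 highest and 12 lowest named genes of the croton oil library (rows), in the croton oil (circles), microneedle (squares) and untreated (triangles) libraries, with dotted lines at 2-fold; open symbols mark genes under 20 CPM in that library. Of the higher genes 9 pass the filter after punches and 4 in untreated skin, all on the right, whereas Mrc1 and C1qb are open outside croton oil.

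Some genes differed in size between libraries. Nlrp3 was 0.33 higher in croton oil Il1b-high cells, 0.83 after punches and 0.57 in untreated skin, Cd80 0.53, 1.39 and 1.23, and Casp4 0.76 and 1.55 after punches. Of 8 interferon-stimulated genes measured after punches all 8 were higher, 4 by 1.5-fold (median 0.62), beside 41.9% and 2.15% of all genes there. The 4 measured in both libraries were Bst2 (-0.06 after croton oil and 0.85 after punches), Ifi204 (0.15 and 0.47), Irf1 (0.55 and 0.71) and Stat2 (-0.17 and 0.07). In untreated skin 26 of 27 AP-1 and immediate early genes were higher, 6 by 1.5-fold (median 0.35), beside 35.4% and 0.816% of all genes there. These differences between libraries were not tested.

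Within the croton oil library, gated cells of at least 8000 UMIs were laid out by their Il1b level. From Il1b-zero cells over steps of up to 250, 250 to 500, 500 to 1000, 1000 to 2000 and at least 2000 CPM there were 1820, 741, 357, 403, 437 and 514 cells, with median depths between 12530 and 13919 UMIs. Cxcl2 went up at each step, with 986, 1004, 1153, 1328, 1627 and 2377 CPM. Nfkbia did too, from 706 to 935 CPM below 2000 CPM of Il1b and 1429 above. Icam1 stayed between 19.3 and 22 CPM over the 4 middle steps and stood at 65.2 (59.4 to 71.5) in the top one. Cxcl1 was 80.5, 77.3, 77.3, 129 and 132 CPM and then 297.5. The jump in the top step was also seen in Ccl17 (at most 10.5 CPM below, 54.4 in it), Il1rn (at most 3.53, then 15.0), Il1a (at most 4.70, then 12.2) and Nrp2 (at most 37.6, then 64.6). Mrc1 and C1qb took another course: Mrc1 was 25.1, 30.7, 79.1, 56.4, 106 and 79.4 CPM and C1qb 37.1, 56.2, 95.2, 74.8, 90.9 and 98.5, so both stood above the Il1b-zero level in every step with Il1b, also below the threshold, with an uneven course. Pde4d declined over the steps from 356 to 217 CPM, H2-M5 from 81.8 to 39.2 with an uneven middle, and Cdh1 from 329 to 238. Casp1 showed no course, between 16.2 and 19.6 CPM, while Casp4 went from 30.9 to 66.1 and Nlrp3 from 236 to 313.

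**Figure D5:**
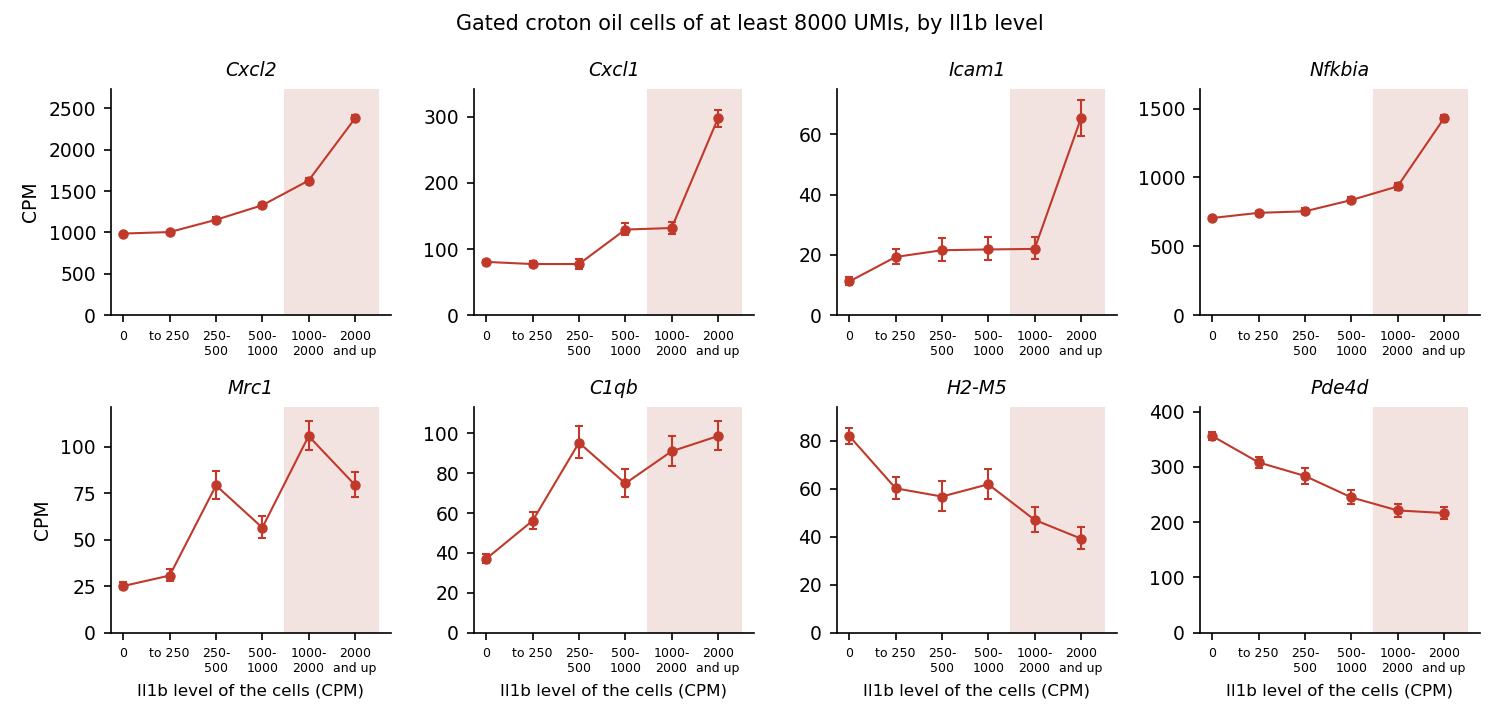
Level in CPM (y axes, from 0) of 8 genes in gated croton oil cells of at least 8000 UMIs by the cells' Il1b level in CPM (x axes); points are summed CPM, bars exact 95% Poisson intervals, and the shaded steps are Il1b-high cells. Icam1 and Cxcl1 jump in the top step, Mrc1 and C1qb lie above the Il1b-zero level in every step with Il1b on an uneven course, and H2-M5 and Pde4d decline.

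The higher genes did not all sit in the same cells. Among the 951 thinned Il1b-high cells, Mrc1 and C1qb went together: 55.3% (47.0 to 63.4) of the 150 cells with an Mrc1 UMI held C1qb, against 22.3% of the other 801. Il1b-zero cells showed the same pairing, 48.7% of 113 against 13.5%. Cxcl1 went with Cxcl2: 95.6% of the 228 cells with a Cxcl1 UMI held Cxcl2, against 70.0% of the other 723, and 88.3% against 57.7% in Il1b-zero cells. Microneedle Il1b-high cells, 127 of them with Cxcl1, had 93.7% against 64.7%. Cells with Cxcl1 also held Icam1 more often, 20.6% against 8.44%, and Il1rn, 12.3% (8.32 to 17.3) against 2.35%, while the values in Il1b-zero cells were 1.41% against 0.996%. Between the pairs there was no such tie: 13.6% of cells with Cxcl1 and 16.5% of those without held Mrc1. The 48 cells with a Ccl17 UMI held Mrc1 in 1 cell (2.08%, 0.053 to 11.1), against 16.5% of the rest, and Icam1 in 29.2% against 10.4%. The 45 cells with an Il1rn UMI held a mean of 35.5 Il1b UMIs, against 20.1 in those without.

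The Il1b-high cells were spread over the gated population, but had more Il1b-high cells near them than Il1b-zero cells did. On 30 principal components of 2000 variable genes, with the gate's genes and Il1b left out, a mean of 28.6% of the 15 nearest cells of an Il1b-high cell were Il1b-high, against 15.8% for Il1b-zero cells and a share of 22.3% among all 4272 cells. Of the 951, 117 (12.3%) had a majority of Il1b-high neighbours, against 1.10% of Il1b-zero cells and 4.26% of all cells. No Il1b-high neighbour was found for 30 of the 951, against 339 of the 1820 Il1b-zero cells. Clustering the same cells gave 4 clusters, none of which was given a name. The first, led by Mgl2, Eno3 and Ifitm1, had 21.4% Il1b-high cells, the second, led by Fhdc1, Dgkg and Htr7, 21.2%, the third, led by Spp1, Clec4n and Mast4 with Mrc1 among its first genes, 31.8% (28.8 to 34.9) and the fourth, led by the heat shock genes Hsph1, Hspa1b and Hspa1a, 10.3% (7.85 to 13.2). Since clusters were built on all other genes, their shares are a description.

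Inside each cluster the differences kept their direction and varied in size. Cxcl2 was higher by 0.82, 0.35, 0.99 and 2.24 in the 4 clusters in that order, Icam1 by 1.16, 0.90, 1.93 and 2.38, and Nfkbia by 0.57, 0.38, 0.73 and 1.54. Cxcl1 was higher by 0.90, 0.17, 1.82 and 3.5, with 62.8 against 55.4 CPM in the second cluster. Mrc1 was higher by 0.61, 2.45, 1.32 and 2.11, with 25.6 against 15.1 CPM in the first cluster and 90.2 against 12.4 CPM in the second, and C1qb was higher by 1.07, 0.86, 1.59 and 2.11. Ccl17 was high in the third cluster alone, 86.7 against 6.80 CPM (2.96). The fourth cluster had the lowest Il1b-zero levels of Cxcl1 (6.37 CPM), Cxcl2 (269), Icam1 (4.61) and Nfkbia (298), though the highest of C1qb (56.9) and H2-M5 (185), and its ratios, from 55 Il1b-high cells, were the largest for Cxcl1, Cxcl2, Icam1 and Nfkbia. H2-M5 was lower by -0.49, -0.21, -0.94 and -1.31, and Pde4d by -0.28, -0.36, -0.80 and -0.96.

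The 3 libraries held 119360952 (croton oil), 117178809 (microneedle) and 127666928 (untreated) UMIs, with medians of 12509, 16427 and 11623 per barcode. The croton oil Il1b-high cells held 14115131 UMIs and the Il1b-zero cells 26208192. The croton oil library shared 13 barcodes with the microneedle and 32 with the untreated library, and no barcode was Il1b-high in more than 1. Scrublet, a doublet caller, marked 0 croton oil cells by its automatic threshold and so did not work; leaving out the 532 highest scores instead removed 57 Il1b-high (5.56%) and 81 Il1b-zero cells (4.45%), and 10 genes were again 2-fold higher.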

How the data were processed

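The 3 single-cell libraries of enriched mouse epidermal Langerhans cells, 1 for each treatment, were analysed. The matrices deposited by the authors hold raw counts of UMIs per gene and barcode, made with Cell Ranger 8.0 on GRCm39, per the submitters' processing notes. They list 34289 features, and 80 of these share a symbol with another.

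The gate and the Il1b-high threshold were applied to each library, UMIs were summed over cells, and CPM were compared as log2 ratios with 5 CPM added. Genes needed 20 CPM over the gated cells of that library, and the 17 genes of the gate and of Il1b selection were left out of counts. Genes were called at 2-fold. The 1.5-fold limit was added after the data had been seen. With 1 library per treatment no test was possible, and intervals are exact Poisson (CPM) or Clopper-Pearson (shares) at 95%. UMIs remove amplification copies, but the intervals still cover counting error only. Named genes were the 12 highest and 12 lowest log2 differences among genes of at least 50 CPM over the gated croton oil cells, without gate, mitochondrial or shared-symbol genes; Nrg1 was left out for its symbol. Other genes are named from the gene lists or because a count of calls included them. The members and the 18 gene lists and 8 marker lists were chosen with earlier results of these data known.

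For shares of cells with a UMI, each cell was thinned to 8000 UMIs, and shallower cells (74 Il1b-high cells, 0 Il1b-zero cells) were left out. Unthinned, 18.7% against 7.14% of cells held Mrc1, 26% against 14.5% Cxcl1, 35.3% against 20.4% C1qb, 79.1% against 66.5% Cxcl2, 4.39% against 0.934% Il1a, 5.66% against 1.70% Il1rn, 20.4% against 20.6% Casp1, 30.4% against 24.2% Mki67 and 2.93% against 2.80% Fscn1. Clusters and neighbours used scanpy 1.11.5 (resolution 0.5). Scrublet scores stood in for doublet calls, with 0.8% per 1000 barcodes left out in an alternative. Calculations ran in Python 3.11.15 with numpy 2.4.6, scipy 1.17.1, pandas 2.3.3 and scikit-learn 1.9.0, and the contrast was tested on simulated data. A marker of the monocyte and macrophage list, and the summed level of that list, are not reported here.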

Additional observations from a re-analysis of the deposited data

Results flagged for a closer look

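The macrophage marker Adgre1 (F4/80) was higher in the Il1b-high than in the Il1b-zero cells of the croton oil library, by 0.26 on the log2 scale, and lower in those of the microneedle library, by -0.27. It drew attention because the direction was opposite in the 2 libraries. The difference between the libraries was not tested, and both values lie within 1.5-fold.

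The matrices also list 4 transgene features that entered no comparison. The red fluorescent protein mCherry stood at 4.39 CPM (3.37 to 5.63) in the croton oil Il1b-high cells, from 62 UMIs, against 0.453 CPM (0.0115 to 2.52), from 1 UMI, in those of the untreated library, so it lay above the level in the untreated library. Microneedle Il1b-high cells held 17 UMIs, or 1.61 CPM. Over all gated cells the 3 libraries held 312, 142 and 192 mCherry UMIs, or 4.8, 1.21 and 1.97 CPM (croton oil, untreated, microneedle), so the level in the croton oil Il1b-high cells was no higher than in all gated cells of that library. The labels name no reporter allele. The features eGFP (14, 1 and 19 UMIs in the Il1b-high cells, same order) and tdTomato and creER (0 UMIs in each) are given for comparison.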

How the results depend on the processing

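The count of genes at least 2-fold higher in the Il1b-high cells, 10 as reported, was 16 with no filter on low values, 5 with a filter of 50 CPM, 18 with Il1b-high set at 2000 CPM, 4 against all other gated cells and, in a setting chosen after seeing the data, 6 in cells with no UMI of Cxcl1. It lay between 7 and 13 in the other settings. The count of genes 2-fold lower was 0 in every setting. The share of Il1b-high cells after croton oil, punches and no treatment was 32%, 19.6% and 4.36% at 500 CPM, 12.5%, 3.86% and 0.560% at 2000 CPM, and 12.4% for punches after thinning. The order of the 3 libraries was the same in each.

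Counts at 1.5-fold, 39 higher and 7 lower, moved more: 25 and 2 with 20 CPM added, 70 and 13 with no filter, 23 and 3 with a filter of 50 CPM, 72 and 27 at 2000 CPM, 25 and 4 against all other gated cells, and 37 and 21 in cells with no UMI of S100a8, S100a9 or the keratins. They were 46 and 13 with 1 CPM added, 29 and 3 at 500 CPM, and 43 and 15 against Il1b-zero cells of at least 12000 UMIs. Without the cells high in heat shock genes they were 35 and 4, and without cells holding Mrc1 or C1qb 39 and 11. Causes were not tested. The median log2 difference of all genes was -0.04, and -0.01 with TMM factors and 0.00 with median-of-ratios factors. The 24 named genes kept their direction in 501 of 501 values over the settings, and the 190 other listed genes in 3799 of 3989. The 24 were named for their size in this contrast, and the settings reuse its cells. Their agreement was thus largely given in advance. No paired analysis was possible because each treatment had 1 library, and for the same reason no replicate could be left out.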

Other observations

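Tnf, which like Il1b is turned on by NF-kB, went up over the steps of croton oil cells with Il1b, but the Il1b-zero cells were not the lowest. It stood at 289 CPM in Il1b-zero cells, at 233, 236, 251 and 270 CPM over the 4 middle steps and at 351 CPM in the top one, so the lowest values were in cells with a little Il1b. Vegfa, a vascular growth factor, stood at 80.6 CPM in the Il1b-high and 52.4 CPM in the Il1b-zero cells (0.58), and Il10, an anti-inflammatory cytokine, at 41.4 against 28.3 CPM (0.48). Alox5ap, needed for leukotriene synthesis, was on the lower side, at 452 against 575 CPM (-0.35).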
